A study of Mus musculus with 12 samples.

Results

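The 10 genes described here encode parts of the 2 routes by which cells display peptides to T cells, and they were taken by symbol from the 23420 genes of the deposited table. B2m, H2-K1 and H2-D1 encode class I molecules, Tap1 and Tapbp load them, H2-Aa, H2-Ab1, H2-Eb1 and Cd74 encode class II molecules and their chaperone, and Ciita encodes the class II transactivator. All 10 symbols were in the table. RNA was sequenced from 12 kidneys of male C57BL/6J mice of 8 to 15 weeks, by the study's methods, in 3 groups of 4. Control kidneys came from nephrectomy, without clamping by the methods, although the sample labels give 20 min of ischemia to every kidney. The other 8 kidneys had 20 min of ischemia and 24 h of reperfusion, with a clamp around the renal pedicle that is closed from outside the body. The labels of these kidneys contradict each other. Ischemia set A is anaesthetised by its titles and conscious by its group field, and ischemia set B is the reverse, so the sets keep these neutral names and nothing here is ascribed to anaesthesia. During clamping, anaesthetised mice were under ketamine and xylazine, and mice clamped while conscious had isoflurane briefly when the clamp was closed and released. By the methods, ketamine and xylazine were also given for the surgery that placed the clamp, with buprenorphine after it, and at tissue collection. Clamped mice were kept in a warmed incubator. Control kidneys were collected at nephrectomy and ischemic kidneys when the mice were killed. The way of collection, the surgery that placed the clamp, the incubator and the ischemia therefore cannot be told apart.

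Class I molecules sit on nearly all nucleated cells. They hold peptides cut by proteasomes in the cytosol, carried into the endoplasmic reticulum by the TAP transporter and loaded with the help of tapasin (Tapbp), and they reach the surface only with beta-2-microglobulin (B2m). Class II molecules are made mainly by dendritic cells, macrophages and B cells, and also by injured tubule cells. Their chains assemble on the invariant chain (Cd74), which blocks the groove until the endosome, and their transcription depends on Ciita acting through factors bound to the X and Y boxes of the promoter. Interferon gamma raises both routes. In the kidney, resident macrophages and dendritic cells are the best known class II cells.

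To show the promoter elements behind these descriptions, 4 promoters are given from RefSeq (build GRCm38.p6, 250 bases before the annotated start, 5′ to 3′ on the gene's strand). Entries were found for 7 of the 10 members, and H2-Ab1, Cd74 and Ciita are named only. The 2 class II promoters are shown for the letters GCAAC and ATTGG (the latter being CCAAT on the other strand), 20 to 40 bases apart in that order on either strand, which mark an X and Y pair. The first lies at chr17:34287824-34288073 on the minus strand and the second at chr17:34305617-34305866 on the plus strand. The pair was chosen with these sequences in view. Capitals mark it here:
H2-Aa: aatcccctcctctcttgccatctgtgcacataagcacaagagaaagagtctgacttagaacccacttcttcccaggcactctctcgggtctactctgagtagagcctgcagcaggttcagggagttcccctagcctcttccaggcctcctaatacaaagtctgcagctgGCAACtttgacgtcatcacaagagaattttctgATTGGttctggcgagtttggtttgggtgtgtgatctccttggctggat
H2-Eb1: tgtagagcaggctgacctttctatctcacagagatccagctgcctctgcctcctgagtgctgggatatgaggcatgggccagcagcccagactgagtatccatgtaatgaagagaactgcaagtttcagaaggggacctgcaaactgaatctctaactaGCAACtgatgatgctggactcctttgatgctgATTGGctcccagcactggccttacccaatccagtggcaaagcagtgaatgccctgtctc
The 2 boxes were 28 bases apart in H2-Aa and 27 bases apart in H2-Eb1. The pair was present in 277 of 32851 mouse promoters of the same length (0.843%), and CCAAT alone, on either strand, in 33.8%. Of the 7 members with a promoter, only these 2 held the pair. H2-K1 and the class I gene H2-T23, from the pathway list described later, are shown because their levels took different courses. They lie at chr17:34000348-34000597 and chr17:36032702-36032951, both on the minus strand. Capitals mark an NF-kappaB motif in the former, searched as exactly these letters, and in the latter an interferon response motif, searched as TTTC, any 2 letters and TTTC, each on both strands:
H2-K1: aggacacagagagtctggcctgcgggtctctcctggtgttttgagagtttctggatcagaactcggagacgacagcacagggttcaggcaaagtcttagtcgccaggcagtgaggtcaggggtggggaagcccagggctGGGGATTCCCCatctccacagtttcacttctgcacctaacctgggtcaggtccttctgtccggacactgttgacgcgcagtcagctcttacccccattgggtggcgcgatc
H2-T23: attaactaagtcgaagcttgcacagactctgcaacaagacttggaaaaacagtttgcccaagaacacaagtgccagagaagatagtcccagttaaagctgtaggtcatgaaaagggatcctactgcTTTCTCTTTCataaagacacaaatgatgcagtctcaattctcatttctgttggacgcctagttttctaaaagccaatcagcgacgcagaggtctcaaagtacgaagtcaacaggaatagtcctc
The NF-kappaB letters occurred in 10 of the 32851 promoters (0.0304%), those of H2-K1 and H2-D1 among them. The interferon response letters occurred in 978 (2.98%), among them B2m and H2-T23. A match describes letters and is no evidence of binding. A promoter without a match, such as H2-K1 for the interferon response letters, may hold the element in other letters, which were not searched.

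In the mm10 annotation, B2m lies at chr2:122147686-122153083, Ciita at chr16:10480059-10528418 and Cd74 at chr18:60803848-60812652, all on the plus strand. The other 7 lie on chromosome 17, in the major histocompatibility complex: Tapbp at chr17:33915899-33929292 and H2-K1 at chr17:33996017-34000347 are followed by Tap1 at chr17:34187553-34197225, H2-Ab1 at chr17:34257689-34269419, H2-Aa at chr17:34282744-34287823, H2-Eb1 at chr17:34305867-34316674 and H2-D1 at chr17:35262730-35267499. H2-K1 and H2-Aa are on the minus strand and the other 5 on the plus strand.

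Kidneys had from 15367342 to 44793350 counts in genes. Levels are CPM, counts scaled to the size of the library with TMM factors, and 3 counts, taken as the floor, correspond to between 0.0661 and 0.190 CPM, for counting error only. The 9 kidney tubule markers summed to at least 1786 CPM in every kidney, as the tissue label says. The table holds many values of exactly 0. Among 2025 genes with a mean of 10 to 40 counts, 46.2% of values were 0 and 5.42% were 1 to 9, where a Poisson spread around each mean would give 0.00734% zeros. Short genes were at 0 in all 12 kidneys most often: 81.26% of 1222 protein-coding genes with up to 1000 exon bases against 13.06% of those with over 5000. A low or 0 value below is therefore a value of this table, and what it says about RNA in the kidney was not tested.

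**Figure D1:**
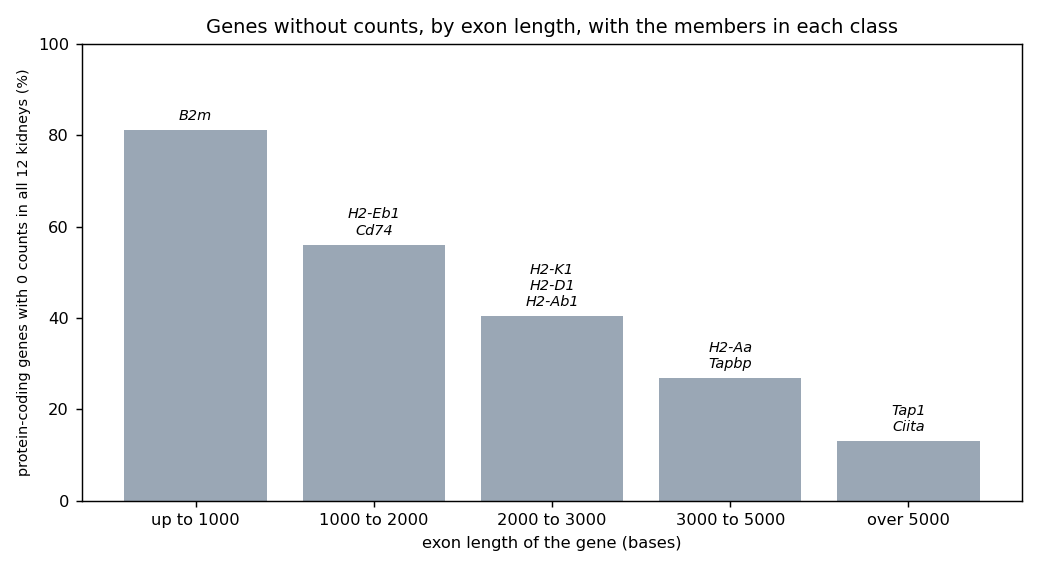
Share of protein-coding genes with 0 counts in all 12 kidneys (%, vertical axis) by exon length in bases (horizontal axis), with the members in each length class named above the bars. The share fell from 81.26% to 13.06% with length, and B2m stands in the shortest class.

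After ischemia, 3 class II genes fell in both ischemia sets while H2-K1, the class I heavy chain with the highest level, passed no threshold. H2-Aa, H2-Eb1 and Cd74 were lower in both sets than in the controls. H2-Ab1 was lower than the lowest control in all 8 ischemic kidneys, without passing the threshold across all genes. H2-K1 differed from the controls by less than the spread between kidneys. Of the 10 members, 8 passed the filter on low counts, and B2m and Ciita did not. With edgeR's quasi-likelihood test and an adjusted p below 0.05 over 11664 genes, 3 of the 8 were called lower in set A, against 11.7% of all genes tested called lower, 10.5% higher and 22.3% either way. In set B the same genes were called, 3 of 8, against 11.9% called lower, 10.9% higher and 22.8% either way. The median log2 fold change of the 8 was -1.70 for set A and -1.32 for set B, beside -0.02 for all genes in each comparison. Both comparisons use the same 4 controls.

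**Figure D2:**
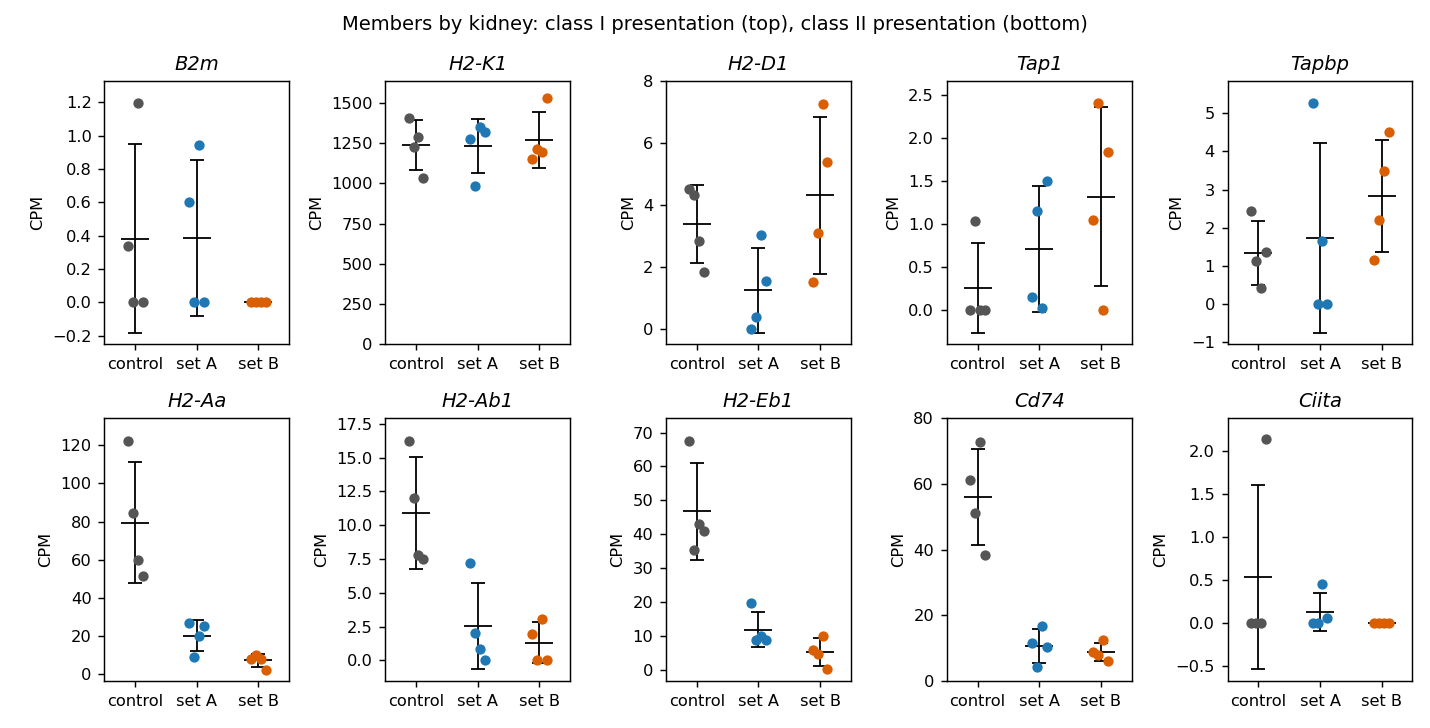
CPM of each member (vertical axis, separate linear scale in each panel) in the 4 kidneys of the control group, ischemia set A and ischemia set B, with horizontal bars for the mean and whiskers for 1 SD. H2-Aa, H2-Ab1, H2-Eb1 and Cd74 lie below every control kidney in both sets, and H2-K1 overlaps in all groups.

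Among the class I genes, H2-K1, which encodes the K heavy chain, was the member with the most counts. Its level in the controls was 1406, 1228, 1291 and 1035 CPM. For set A it was 1276, 983.5, 1351 and 1320 CPM, and for set B 1151, 1213, 1196 and 1531 CPM. The 3 groups overlapped throughout, with means of 1240 ± 155, 1233 ± 169 and 1273 ± 174 CPM (SD, n = 4 each). The log2 difference from the controls was -0.01 for set A (95% confidence interval -0.28 to 0.26) and 0.04 for set B (-0.23 to 0.31). The sign for set A changed with the scaling, and the signs for both sets changed when single kidneys were left out. Of the 100-base windows of its transcripts, 0.957% also occur in other genes, which the counting could assign either way.

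H2-D1, which encodes the D heavy chain, had a far lower level in this table. It was 4.51, 4.34, 2.85 and 1.85 CPM in the controls, 0, 0.385, 3.04 and 1.57 CPM for set A, and 1.52, 3.10, 7.25 and 5.39 CPM for set B. The sets overlapped the controls and each other. Log2 fold changes were -1.43 ± 1.14 (SE) for set A and 0.35 ± 1.12 for set B, neither past the threshold (edgeR adjusted p = 0.464 and 0.901). Without set B replicate 3 the difference in set B was -0.04, and without set A replicate 3 that in set A was -2.40. Its transcripts share 3.59% of 100-base windows with other genes, mostly H2-Q1. Per kilobase of exon, its control level of 1.31 CPM stood beside 422 CPM for H2-K1.

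B2m, the light chain of every class I molecule, is abundant in most tissues and was at or near 0 here. It had 7, 0, 31 and 0 counts in the controls and 19, 0, 43 and 0 for set A, and none for set B. In CPM, these were 0.336, 0, 1.20 and 0 in the controls and 0.603, 0, 0.947 and 0 for set A. By counting error alone, set B at 0 counts would allow up to 0.101 to 0.190 CPM per kidney. Since the controls held both 0 and 31 counts, these values are no bound. B2m has 860 exon bases, in the length class where most genes were at 0, and shares no 100-base window with another gene. The groups overlapped (exact permutation p = 0.429 for set B), and no fold is given, because its values alternate between 0 and higher counts within groups.

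Of the loading machinery, Tap1, a subunit of the peptide transporter, had counts in 1 of 4 controls. Its controls were at 0, 1.04, 0 and 0 CPM, set A at 0.159, 1.16, 0.0220 and 1.51, and set B at 1.04, 2.40, 0 and 1.84. Groups overlapped, and its log2 fold changes of 1.42 ± 2.22 for set A and 2.31 ± 2.28 for set B had wide errors (edgeR adjusted p = 0.771 and 0.569). Without control replicate 2, the only control with counts, they were 7.20 and 8.08 and still not past the threshold (edgeR adjusted p = 0.119 and 0.0923), fitted against controls at 0 and so no bound. Tap1 exons overlap those of Psmb9 on the opposite strand, as those of Ciita do with Dexi, and the strand setting of the counting is not given in the sources used here. Tapbp, which encodes tapasin, was at 2.45, 1.12, 0.424 and 1.36 CPM in the controls, 5.27, 0, 1.65 and 0 for set A, and 1.15, 2.21, 3.48 and 4.51 for set B. It passed no threshold, with log2 fold changes of 0.38 ± 1.48 and 1.08 ± 1.49 (edgeR adjusted p = 0.923 and 0.711). Without set A replicate 1 the former was -1.22. Tapbp exons overlap those of Zbtb22 on the same strand, and its counts are uncertain.

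H2-Aa, which encodes the alpha chain of the I-A class II molecule, was lower in both sets. Its level was 122, 84.5, 59.8 and 51.7 CPM in the controls. For set A it was 26.7, 8.90, 20.1 and 25.6 CPM, and for set B 8.18, 10.4, 8.22 and 2.60 CPM. Every ischemic kidney lay below every control. H2-Aa was 3.91-fold lower in set A (log2 fold change -1.97 ± 0.39 SE, edgeR adjusted p = 0.000728) and 10.8-fold lower in set B (-3.43 ± 0.41, edgeR adjusted p = 3.4e-06). Leaving out each kidney kept both calls. Fewer cells that express a gene and less RNA per cell cannot be told apart in whole kidney, here and in all results below.

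H2-Eb1, which encodes the beta chain of the I-E molecule, was at 67.5, 35.4, 43.0 and 41.0 CPM in the controls. It was at 19.6, 8.81, 10.02 and 8.91 CPM for set A and at 5.86, 4.68, 10.1 and 0.127 CPM for set B. No ischemic kidney reached the lowest control. H2-Eb1 was 3.94-fold lower in set A (log2 fold change -1.98 ± 0.59 SE, edgeR adjusted p = 0.0195) and 8.93-fold lower in set B (-3.16 ± 0.62, edgeR adjusted p = 0.000768). The call in set A was lost without control replicate 1 (edgeR adjusted p = 0.0734), set A replicate 2 (0.0548), replicate 3 (0.0605) or replicate 4 (0.0548), and that in set B held without each kidney in turn. Its partner H2-Ea, a gene without a functional product in C57BL/6 mice, is listed as H2-Ea-ps and had no count in any kidney.

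H2-Ab1, the partner of H2-Aa in the I-A molecule, had a lower level and larger errors. It was at 16.3, 12.03, 7.79 and 7.50 CPM in the controls, 7.17, 2.01, 0.859 and 0.0602 CPM for set A, and 1.99, 0, 3.09 and 0.0635 CPM for set B. The controls overlapped neither set (exact permutation p = 0.0286, the smallest that 4 against 4 allows), although set A replicate 1 came close to the lowest control. The log2 fold changes were -2.10 ± 1.16 for set A and -3.06 ± 1.21 for set B, and neither passed the threshold (edgeR adjusted p = 0.235 and 0.0778). They were -3.44 without set A replicate 1 and -3.95 without set B replicate 3, still not past it. At the other end, fits without 1 kidney reached -1.72 for set A and -2.67 for set B. For set B the gene passed it with no filter on low counts (edgeR adjusted p = 0.0457) and with DESeq2 (adjusted p = 0.0348).

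Cd74, the invariant chain, was at 61.2, 51.2, 72.9 and 38.5 CPM in the controls. It was at 11.5, 4.19, 16.7 and 10.4 CPM for set A and 8.89, 7.91, 12.4 and 5.97 CPM for set B. Controls and ischemic kidneys did not overlap. Cd74 was 5.22-fold lower in set A (log2 fold change -2.38 ± 0.36 SE, edgeR adjusted p = 5.5e-05) and 6.36-fold lower in set B (-2.67 ± 0.37, edgeR adjusted p = 1.8e-05). Both calls held without each kidney in turn. An exon of Cd74 overlaps the microRNA gene Mir5107 on the same strand. Counting lack of overlap, 4 of the 10 members were lower in all ischemic kidneys of a set, the same 4 class II genes in each set, beside 15.7% of genes tested for set A and 15.1% for set B.

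Ciita, the class II transactivator, was detected in few kidneys. It had 82 counts (2.14 CPM) in control replicate 4, 21 counts (0.462 CPM) in set A replicate 3 and 1 count in set A replicate 4. The other 9 kidneys were at 0, which by counting error alone would allow up to 0.190 CPM in the shallowest. The table holds more zeros than counting error gives, so this value is no bound. Ciita had too few counts to be tested by the model. The fall of H2-Aa, H2-Eb1 and Cd74 can therefore not be set beside a measured change in Ciita.

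Per kilobase of exon, the order of the members in the controls was H2-K1 (422 CPM), Cd74 (33.3), H2-Eb1 (24.0), H2-Aa (20.9), H2-Ab1 (4.24), H2-D1 (1.31), B2m (0.445), Tapbp (0.368), Ciita (0.0562) and Tap1 (0.0475). Cd74, H2-Eb1 and H2-Aa lay within a factor of 2 of each other, and their kidneys overlapped. The control kidneys of B2m, Tapbp, Ciita and Tap1 overlapped, and of these only Tapbp had counts in all 4. The lead of H2-K1 and the gap between the 3 class II genes and H2-Ab1 exceeded the spread between control kidneys.

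The mean log2 CPM of the 4 class II genes minus that of B2m, H2-K1 and H2-D1 was 1.93 ± 0.62 in the controls (SD, n = 4), 0.27 ± 1.29 for set A and -1.25 ± 1.59 for set B. B2m, at 0 in 8 of the 12 kidneys, enters the class I mean there at a level set by the prior count. The 4 class II genes summed to between 139 and 267 CPM in the controls, 23.9 and 65.0 for set A and 8.76 and 33.8 for set B, without overlap between the controls and either set. These sums are descriptions, since the members were chosen with results known.

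Between the 2 ischemia sets, edgeR called 0 of 8 members, beside 1 of 11664 genes (0.00857%). At an unadjusted p below 0.05 there was 1 member, H2-Aa, beside 587 of all genes tested (5.03%), and DESeq2 called 0 members. The level of H2-Aa in set B was 2.76-fold below that of set A (log2 difference -1.47 ± 0.39 SE, edgeR unadjusted p = 0.00126, adjusted p = 0.697). Set A replicate 2 lay below the highest kidney of set B, and the exact permutation p was 0.0571. H2-Eb1 differed by -1.18 (95% confidence interval -2.41 to 0.05), Cd74 by -0.28 (-1.02 to 0.45) and H2-Ab1 by -0.96 (-3.33 to 1.41). The last was 0.40 without set A replicate 1. H2-K1 differed by 0.05 (-0.22 to 0.31). No member lay wholly on one side between the sets, beside 1.32% of genes lower without overlap for set B and 1.29% higher.

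**Figure D3:**
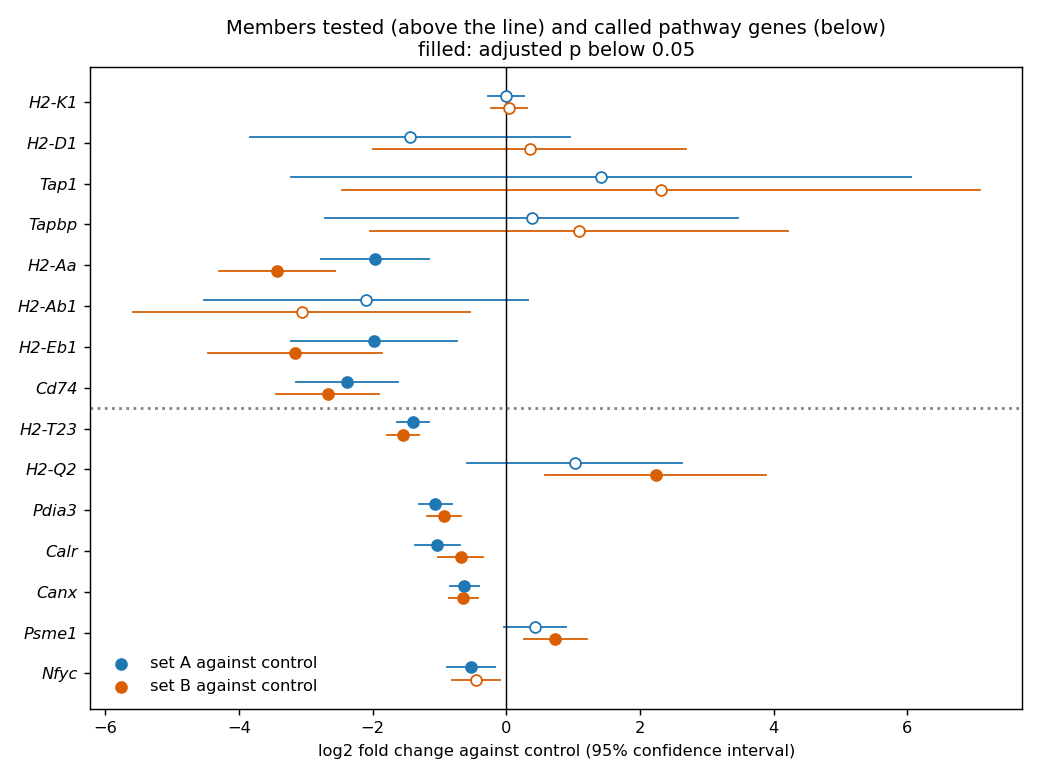
Log2 fold change against control (horizontal axis) with its 95% confidence interval for the 8 members tested, above the dotted line, and the 7 called genes of the pathway list below it, for set A and set B. Filled points have an edgeR adjusted p below 0.05. H2-Aa, H2-Eb1 and Cd74 are filled in both sets, and H2-K1 has a narrow interval across 0.

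A list of 58 other genes of the pathway was set beside the members. It held 34 tested genes and 16 at 0 in all 12 kidneys. For set A 5 of the 34 were called lower and none higher, beside 11.7% and 10.5% of all genes. For set B 4 were called lower and 2 higher, beside 11.9% and 10.9%. The median log2 fold change of the tested genes was -0.13 for set A and -0.02 for set B, close to -0.02 for all genes. Between the sets, edgeR called 0 of 34, with 2 at an unadjusted p below 0.05 beside 5.03% of all genes, and DESeq2 called 0.

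Among 12 other class I heavy chains tested, H2-T23, which encodes Qa-1, the ligand of the inhibitory receptor NKG2A on NK and T cells, fell in both sets. Its level was 839, 866, 837 and 861 CPM in the controls, 280, 322, 325 and 366 for set A and 266, 310, 303 and 288 for set B. The controls lay above every ischemic kidney, and the ischemia sets overlapped each other. Log2 fold changes were -1.40 ± 0.11 (SE, edgeR adjusted p = 1.6e-08) for set A and -1.54 ± 0.11 (edgeR adjusted p = 4.8e-09) for set B. Its transcripts share 3.15% of windows with other genes. H2-Q2 rose in set B, with 6.30, 3.04, 6.19 and 21.3 CPM against 1.82, 2.91, 1.47 and 1.62 in the controls (log2 fold change 2.23 ± 0.79, edgeR adjusted p = 0.0482). This call was lost without any 1 of 7 of the 8 kidneys, all but set B replicate 2, with an adjusted p of 0.306 and a log2 fold change of 1.40 without set B replicate 4. Its transcripts share 5.09% of windows with H2-Q1, so its counts are uncertain.

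Of the 10 tested genes of class I processing, 3 fell in both sets, beside 11.7% and 11.9% of all genes called lower. Pdia3 and Calr encode the chaperones ERp57 and calreticulin of the peptide loading complex, and Canx encodes calnexin, which folds new heavy chains; all have wider roles in the endoplasmic reticulum. Pdia3 was at 1197 ± 94.4 CPM in the controls, 574 ± 56.6 for set A and 626 ± 81.7 for set B (SD, n = 4 each), with log2 fold changes of -1.06 and -0.93. Calr was at 420 ± 51.4, 206 ± 23.1 and 262 ± 60.9 CPM, with log2 fold changes of -1.03 and -0.68. Canx was at 997 ± 53.6, 645 ± 20.8 and 639 ± 69.8 CPM, with log2 fold changes of -0.63 and -0.64. The largest edgeR adjusted p among these tests was 0.00339, for Calr in set B, and none of the calls was lost without 1 kidney. Psme1, a subunit of the proteasome activator PA28, was at 33.3, 35.9, 36.3 and 38.5 CPM for set A, above every control, without passing the threshold (log2 fold change 0.44 ± 0.22, edgeR adjusted p = 0.189). It rose in set B from 26.6 ± 1.61 to 44.4 ± 12.6 CPM (log2 fold change 0.74 ± 0.22, edgeR adjusted p = 0.0205), a call lost without control replicate 2 (edgeR adjusted p = 0.0632), set B replicate 2 (0.0673) or set B replicate 4 (0.0768). Tap2, the partner of Tap1, was at 2.28 ± 0.973, 1.02 ± 0.743 and 2.11 ± 1.23 CPM and passed no threshold.

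The inducible proteasome subunits did not pass the threshold where tested. Psmb10 was at 4.41 ± 1.95, 4.03 ± 2.54 and 3.47 ± 3.65 CPM in the 3 groups. Psmb8 was at 0.216 ± 0.431, 0.665 ± 0.381 and 0.827 ± 1.16 CPM, and Psmb9 had counts in 2 kidneys, 1 in each set. Their log2 ratios to the constitutive subunits that they replace are set largely by the prior count for Psmb8 and Psmb9, and no test of these is given. The log2 ratio of Psmb10 to Psmb7 was -6.21 ± 0.65, -6.10 ± 0.89 and -6.92 ± 2.52 in the 3 groups, which overlapped. Psmb5, a constitutive subunit, was higher in set A (log2 fold change 0.39 ± 0.13, edgeR adjusted p = 0.0346), a call lost in 7 of 8 fits without 1 kidney, all but that without set A replicate 1 (edgeR adjusted p up to 0.113). In set B its log2 fold change was 0.32 ± 0.13 (edgeR adjusted p = 0.0873), and the sets differed by -0.07 ± 0.13. Nlrc5, the class I transactivator, was detected in control replicate 1 and set A replicate 3.

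Of the other class II pathway genes, 4 were tested and none called in either set, beside 22.3% and 22.8% of all genes called either way. H2-DMa, whose product exchanges peptides on class II molecules, was detected in 1 control kidney and H2-DMb1 in 1 control and 1 set B kidney. Of the 8 genes on the list of class II control, which holds factors that bind class II promoters and partners of these, Nfyc, a subunit of NF-Y, fell in set A from 135 ± 18.0 to 93.9 ± 9.87 CPM (log2 fold change -0.53 ± 0.17, edgeR adjusted p = 0.0298), a call lost in 6 of 8 fits without 1 kidney, all but those without control replicate 2 or set A replicate 4 (edgeR adjusted p up to 0.0938). Set B was at 98.9 ± 20.9 CPM (log2 fold change -0.45 ± 0.17, edgeR adjusted p = 0.0625), and the sets differed by 0.08 ± 0.17. Rfx5, which binds the X box, was at 4.62 ± 0.892, 6.75 ± 2.92 and 9.75 ± 2.52 CPM, with log2 fold changes of 0.54 ± 0.50 and 1.07 ± 0.50 (edgeR adjusted p = 0.543 and 0.140).

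Among 16 tested interferon signalling genes of 27, 1 was called in each set, beside 22.3% and 22.8% of all genes called either way. Jak1, the kinase of the interferon receptors and of many cytokine receptors, rose from 630 ± 71.9 CPM to 843 ± 95.6 for set A and 883 ± 103 for set B (log2 fold changes 0.42 and 0.49, edgeR adjusted p = 0.0168 and 0.00595). The call in set A was lost without control replicate 2 (edgeR adjusted p = 0.0687) or 4 (0.0537) and without set A replicate 2 (0.0594) or 4 (0.0687). Irf1, an interferon-induced transcription factor, was at 9.10 ± 1.76, 16.0 ± 1.48 and 12.5 ± 5.91 CPM (edgeR adjusted p = 0.158 and 0.488). Its set A kidneys lay above every control, as for 12.6% of genes tested, and its set B kidneys overlapped the controls. Gbp2, an interferon-induced GTPase chosen after its values were seen, lay the other way, at 10.2 ± 2.29, 4.11 ± 1.83 and 4.55 ± 2.52 CPM, also without passing the threshold (edgeR adjusted p = 0.130 and 0.184). Every ischemic kidney lay below every control for Gbp2, as for 15.7% of genes tested in set A and 15.1% in set B. Ifng had no count in any kidney. Of 6 costimulation genes, 5 had no count in any kidney.

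Markers of other cell types moved in the same samples, and their part in the results was not tested. Csf1r, the receptor that macrophages need to survive, was at 52.1 ± 9.05, 13.5 ± 5.25 and 10.5 ± 6.53 CPM in the 3 groups and was lower in set A (log2 fold change -1.94 ± 0.39, edgeR adjusted p = 0.000816) and set B (-2.30 ± 0.39, edgeR adjusted p = 0.000179). It was the only one called of the 6 tested of 12 macrophage and monocyte markers, beside 11.7% and 11.9% of all genes called lower. The sum of the 12 lay between 51.9 and 72.0 CPM in the controls, 12.7 and 24.4 for set A and 11.6 and 30.5 for set B. Csf1r made up most of that sum in the controls. The other markers of the list summed to 8.18 ± 2.81, 5.01 ± 1.20 and 7.57 ± 3.10 CPM in the 3 groups, among them Mrc1, chosen after its values were seen, at 5.57 ± 2.63, 0.928 ± 0.718 and 2.22 ± 1.78 CPM (edgeR adjusted p = 0.0936 and 0.430). Mrc1 lay below every control in set A and made up most of the sum of these other markers in the controls. Adgre1, listed as Emr1, was at 0.676 ± 0.612, 2.18 ± 1.59 and 0.253 ± 0.506 CPM in the 3 groups. It was at 0 in 5 kidneys. Cd68 and Itgam, also chosen after their values were seen, overlapped the controls. Cd68 lay between 0 and 1.66 CPM in the controls, 0 and 2.35 for set A and 0 and 8.69 for set B. Itgam lay between 0 and 0.780, 0 and 1.14 and 0 and 2.27 CPM. The rest were at 0 in 7 or more kidneys, Ly6c2 in all 12. The ratio of H2-Aa to Csf1r had a median of 1.29 in the controls (range 0.954 to 3.002), 1.31 for set A (1.11 to 2.51) and 0.805 for set B (0.421 to 1.03). For H2-Eb1 the medians were 0.741, 0.986 and 0.482, and for Cd74 they were 1.06, 0.780 and 0.936, with overlapping kidneys.

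Of the 8 leukocyte markers 5 were tested and none was called in either set by edgeR, beside 22.3% and 22.8% of all genes called either way. The sum of the 8 lay between 53.9 and 64.4 CPM in the controls, 22.5 and 52.0 for set A and 26.3 and 60.9 for set B. Ptpn6, a phosphatase of blood cells chosen after its values were seen, made up most of this sum, at 49.9 ± 7.37, 31.6 ± 9.88 and 29.8 ± 10.6 CPM, and the rest of the list summed to 9.12 ± 2.89, 11.6 ± 5.19 and 10.3 ± 4.74 CPM. Ptprc, which marks all leukocytes, had log2 fold changes of 0.38 ± 1.09 and 0.57 ± 1.09. Of the dendritic cell markers 2 of 9 were tested and none called, beside the same 22.3% and 22.8% of all genes. Itgax lay between 0 and 3.37 CPM over all kidneys. The dendritic cell markers summed to 1.504 to 2.54, 1.43 to 4.15 and 0 to 3.54 CPM in the 3 groups. B cell markers were at or near 0, with Cd79a at 0 throughout, and the sum of the list was at most 0.539 CPM. Cd3e, the T cell receptor component, had 23, 182, 18 and 30 counts in the controls and none in the 8 ischemic kidneys. Control replicate 2 held most of these counts. The gene passed the filter only through the controls, and its call in each set was lost in every fit without 1 kidney. The other 7 T and NK cell markers were at 0 in all kidneys. Neutrophil markers summed to at most 2.67 CPM and those of fat, adrenal gland and lymph node were 5 of 6 at 0. Endothelial markers summed to between 139 and 167 CPM in the controls, 78.7 and 136 for set A and 57.5 and 124 for set B, and 1 of the 5 tested was called, Tek, lower in set B (log2 fold change -1.47 ± 0.33) beside 11.9% of all genes. Tek was the most abundant of the list, at 69.8 ± 9.77, 38.8 ± 17.4 and 25.1 ± 11.5 CPM. Of those not called, given after their values were seen, Kdr was at 40.9 ± 1.41, 27.4 ± 4.59 and 29.7 ± 6.93 CPM, Ehd3 at 24.8 ± 5.28, 16.2 ± 1.97 and 14.8 ± 8.89 CPM, Cdh5 at 14.2 ± 2.65, 19.0 ± 8.58 and 15.5 ± 5.27 CPM, and Pecam1 at 0.895 ± 1.07, 0.487 ± 0.562 and 0.423 ± 0.492 CPM. The kidney tubule list had 6 of 9 genes called lower in each set, beside 11.7% and 11.9% of all genes. The phosphate carrier Slc34a1 was one of the 6 (log2 fold changes -3.55 and -3.53). The sum of this list was 8838 to 9803 CPM in the controls, 1786 to 2253 for set A and 1799 to 2233 for set B. Slc34a1, at 4919 ± 279.9 CPM in the controls, made up most of that sum there with Slc12a1, at 1511 ± 42.3 CPM. The 3 markers not called were Umod, at 115 ± 3.25, 128 ± 35.1 and 128 ± 58.3 CPM in the 3 groups, Aqp2, at 13.0 ± 3.62, 15.5 ± 4.23 and 18.5 ± 13.3 CPM, and Slc12a3, at 964 ± 149, 827 ± 116 and 876 ± 145 CPM.

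**Figure D4:**
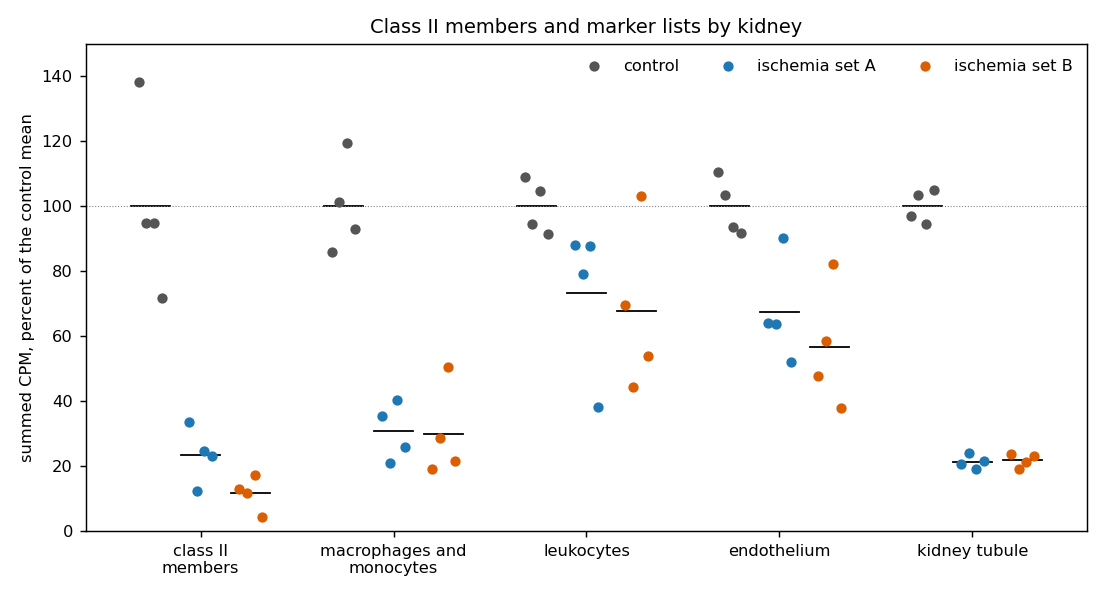
Summed CPM of the 4 class II members and of 4 marker lists in each kidney, as percent of the control mean (vertical axis), with a bar for the group mean. Class II members lay between 12.4% and 33.6% for set A and between 4.54% and 17.5% for set B, macrophage markers, whose sum is mostly Csf1r in the controls, between 19.2% and 50.6% over both sets, and leukocyte markers overlapped the controls in set B.

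The genes whose pattern was most like the class II mean were found by the root mean square difference of log2 CPM, centred on each gene's mean, over the 12 kidneys and 8509 genes. They were Cldn10 (0.666), Scd1 (0.682), Pcbd1 (0.716), Gpm6a (0.718) and Bhmt2 (0.720), against a median of 1.79 over all these genes. The members H2-Aa, H2-Eb1, Cd74 and H2-Ab1 differed from their own mean by 0.661, 0.766, 0.854 and 1.30. Cldn10 was at 77.6 ± 18.7, 12.1 ± 7.52 and 11.2 ± 8.64 CPM in the 3 groups. For the class I mean they were Epha4 (0.474), Mrpl15 (0.484), Dennd1b (0.521), Uggt2 (0.521) and Tmed7 (0.523), against a median of 0.907. H2-K1, B2m and H2-D1 themselves differed from that mean by 0.648, 1.33 and 1.38.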

How the data were processed

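RNA from 12 mouse kidneys was sequenced from stranded mRNA libraries as single 100-base reads. The authors deposited raw counts for 23420 genes without normalization, made from reads checked with FastQC, aligned to mm10 with STAR and counted with HTSeq, per the study's methods and processing notes. Tool versions, annotation release, strand setting and the handling of duplicate and multi-mapped reads are not given in the sources used here. Of the genes, 14213 had a count in some kidney. The total per kidney was 15367342 to 44793350 counts.

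Counts entered edgeR 4.0.16 (R 4.3.3). The filter of edgeR (minimum count 10, minimum total 15) kept 11664 genes, TMM factors scaled the libraries, and the 12 kidneys in 3 groups entered 1 quasi-likelihood fit. Tests were two-sided, adjusted by Benjamini and Hochberg over all genes, with a threshold of 0.05. Single levels were compared by two-sided exact permutation of mean CPM, 4 against 4. Log2 CPM used a prior count of 2. Exon length is the union of annotated exons. The procedure was tested on simulated counts. Python 3.11.15, NumPy 2.4.6, pandas 2.3.3 and matplotlib 3.10.9 were used otherwise. Labels do not state that kidneys came from separate animals beyond the number of mice in the design, and p-values measure the spread between these kidneys.

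The members, the pathway and marker lists and the promoter motifs were chosen with earlier results of these data known. Genes named are all 10 members, up to 4 called genes of each pathway list per comparison, genes that define a step, up to 3 called marker genes of each cell list with Ptprc, Adgre1, Itgax, Cd79a and Cd3e, and the 5 genes most like each class mean; markers at 0 are named beside these. A gene of the interferon list that the rule names is not reported here. Alternatives were DESeq2 1.42.0, RLE size factors, no filter, a CPM filter (over 1 in 4 or more kidneys), a fit to 2 groups alone, a block for the replicate number, each kidney left out, another prior count (0.5), and, added after seeing the data, CPM without TMM factors or with RLE factors for single levels.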

Additional observations from a re-analysis of the deposited data

Results flagged for a closer look

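In 42 groups of 4 kidneys, 8 values lay far from the other 3 of their group by Dixon's test, which chance does in about 1 of 20 groups of continuous values. Tap1, Ciita and the subunit ratios had many kidneys at or near 0 counts, so that rate does not apply to them. H2-K1 in set B replicate 4 was at 1531 CPM, above the other 3 kidneys. H2-Eb1 in set A replicate 1 was at 19.6 CPM, the highest of its set. Tap1 in control replicate 2 was at 1.04 CPM, with the other controls at 0. Ciita was at 2.14 CPM in control replicate 4 and at 0.462 CPM in set A replicate 3. The log2 ratio of Psmb8 to Psmb5 was -7.33 in control replicate 4. The log2 ratio of Psmb9 to Psmb6 was -7.29 in set A replicate 2 and -6.13 in set B replicate 1.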

How the results depend on the processing

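The counts of members and pathway genes called stayed within 1.5 times of those reported under the alternatives that were run. Over the fits without 1 kidney, 2 to 3 members were called in set A, 3 in set B and 0 between the sets, and 4 to 5, 5 and 0 of the pathway list. Beside these, 2142 to 2409 of 11979 to 12103 genes tested were called either way in set A. In set B it was 2213 to 2509 of 11979 to 12120.

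Some differences between groups in the log2 ratio of an inducible to a constitutive proteasome subunit changed sign without 1 kidney. The difference from the controls for Psmb10 to Psmb7 was -0.271 to 0.434 for set A and -1.71 to 0.0230 for set B. For Psmb9 to Psmb6, with Psmb9 at 0 counts in most kidneys, it was -0.291 to 0.745 for set A and -0.0889 to 1.28 for set B, and the sets differed by -0.551 to 1.19.

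Values of single members near 0 changed sign. For H2-K1 in set A the log2 fold change was 0.0117 with RLE size factors, 0.0234 with the CPM filter, 0.0228 with only the 2 groups and 0.0117 with DESeq2, and -0.0812 to 0.0838 without 1 kidney. Without 1 kidney it was -0.0653 to 0.0970 for H2-K1 in set B, -0.0550 to 0.0896 between the sets, -0.0433 to 0.610 for H2-D1 in set B, -1.83 to 0.40 for H2-Ab1 and -0.55 to 0.0049 for Cd74 between the sets, and -1.22 to 0.86 for Tapbp in set A. H2-Ab1 in set B passed the threshold with no filter (adjusted p = 0.0457) and with DESeq2 (0.0348). The cause was not tested.

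No pairing of the kidneys by replicate number was seen, though the values below cannot exclude one. The 12 correlations of deviations between same-numbered kidneys were between -0.055 and 0.045, and 2 of 12 kidneys correlated best with their own number. With the replicate number as a block, 3 members were called in set A and 4 in set B, with H2-Ab1 added (log2 fold change -4.21, adjusted p = 0.0331), 0 between the sets, and 5, 5 and 0 of the pathway list. Of all 11664 genes, the block called 2491 in set A, 2531 in set B and 1 between the sets. Under the block the difference was -0.25 for H2-D1 in set B and -0.54 for Tapbp in set A.

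Over all genes, the 1 gene that edgeR called between the sets became 6 with no filter, 0 with only the 2 groups, 0 to 7 without 1 kidney and 29 with DESeq2, none of them a member with DESeq2.

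B2m, Ciita and Tap1 had 3 or fewer counts in 8, 10 and 5 of the 12 kidneys, which limits what can be compared. With 4 kidneys a group, exact permutation cannot go below 0.0286.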
